A study of Mus musculus with 20 samples.

Results

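The 45 genes described here encode contractile proteins of skeletal muscle and the calcium handling and energy supply that serve contraction. They were taken by name from an expression table of 25219 genes, and all 45 were present. By role, 10 belong to the thick filament, 10 to the thin filament, 12 to the Z-disc, titin and cytoskeleton, 7 to calcium handling and 6 to energy supply. By fibre type, 13 are typical of fast fibres, 8 of slow fibres, and 24 were assigned to neither.

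RNA was sequenced from inguinal white adipose tissue (iWAT) and brown adipose tissue (BAT) of male mice, with 5 libraries in each of 4 groups, Control iWAT, Ai-α4KO iWAT, Control BAT and Ai-α4KO BAT. The experiment asked how loss of α4, a binding protein of the phosphatase PP2A encoded by Igbp1, changes gene expression in adipocytes. Ai-α4KO mice carried floxed α4 alleles and Adiponectin-CreERT2, a Cre recombinase that tamoxifen activates and that the adiponectin promoter restricts to adipocytes. Control mice carried the floxed alleles without Adiponectin-CreERT2 and are called WT in the labels, and both genotypes were on a mixed background and received tamoxifen. Tamoxifen was given at 100 mg/kg in 5 injections over 6 days from 2 months of age, and tissue was taken 1 week after recombination. The labels do not say whether 1 mouse gave both tissues or whether the replicates are separate animals, so p-values measure only the spread between these libraries. 

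A muscle fibre shortens when thick filaments of myosin pull on thin filaments of actin, inside repeating units called sarcomeres that are joined end to end at the Z-discs. Calcium released from the sarcoplasmic reticulum binds troponin on the thin filament and opens actin to myosin. Fast and slow fibres use different gene copies of the same parts, so that Myh4, Mylpf and Tnni2 mark fast fibres and Myh7, Myl2 and Tnni1 mark slow ones. White and brown adipocytes build no sarcomeres, and brown adipocytes descend from precursors that also give rise to skeletal muscle.

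The 4 myosin heavy chain genes that separate the fibre types are shown first, because their proportions differed between libraries and 3 of them lie close together. Myh2, Myh1 and Myh4, the heavy chains of the fast IIa, IIx and IIb fibres, follow each other on the plus strand of chromosome 11, at 67171027 to 67197517, 67200114 to 67224575 and 67237812 to 67260447 in the mm10 build. Myh7, the slow heavy chain, lies on the minus strand of chromosome 14 at 54970688 to 54994549. Their RefSeq promoters (GRCm38.p6) run from 250 bases before to 50 after a start site, on the gene's own strand. They are given as Myh2 at chr11:67170777-67171076, Myh1 at chr11:67199852-67200151, Myh4 at chr11:67237562-67237861 and Myh7 at chr14:54994500-54994799, the last being 1 of 2 listed windows for that gene. Capitals mark TATAAA on either strand.
Myh2: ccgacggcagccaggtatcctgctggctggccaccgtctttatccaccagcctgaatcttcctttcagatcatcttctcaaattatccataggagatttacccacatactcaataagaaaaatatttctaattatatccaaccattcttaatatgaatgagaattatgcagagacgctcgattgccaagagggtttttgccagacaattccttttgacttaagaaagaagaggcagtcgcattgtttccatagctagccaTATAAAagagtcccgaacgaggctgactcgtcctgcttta
Myh1: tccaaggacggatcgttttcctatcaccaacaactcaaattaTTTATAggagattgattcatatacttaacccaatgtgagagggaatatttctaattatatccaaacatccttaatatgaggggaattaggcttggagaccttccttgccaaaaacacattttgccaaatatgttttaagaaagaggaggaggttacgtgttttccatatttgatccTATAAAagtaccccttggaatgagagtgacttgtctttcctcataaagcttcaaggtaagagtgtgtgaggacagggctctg
Myh4: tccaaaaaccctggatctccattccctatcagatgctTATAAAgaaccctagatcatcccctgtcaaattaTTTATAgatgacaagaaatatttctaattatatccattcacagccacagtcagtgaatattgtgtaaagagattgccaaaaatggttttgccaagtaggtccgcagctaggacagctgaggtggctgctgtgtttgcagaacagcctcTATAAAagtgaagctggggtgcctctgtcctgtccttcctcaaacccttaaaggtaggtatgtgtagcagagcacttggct
Myh7: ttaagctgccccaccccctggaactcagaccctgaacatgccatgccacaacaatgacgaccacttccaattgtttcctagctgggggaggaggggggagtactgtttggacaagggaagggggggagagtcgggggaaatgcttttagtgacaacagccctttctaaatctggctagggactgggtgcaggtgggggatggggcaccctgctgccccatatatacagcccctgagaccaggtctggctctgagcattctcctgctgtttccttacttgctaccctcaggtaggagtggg
On either strand, TATAAA begins 208 and 32 bases before the start site in Myh1, and 213, 179 and 31 bases before it in Myh4. In Myh2 it begins at base 11, counted from 1 at the start site, and the window shown for Myh7 holds none. The longest run of bases that Myh1, Myh2 and Myh4 share is 20 bases, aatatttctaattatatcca, and it occurred in 3 of 32851 mouse promoters, which are these. Promoters were found for 35 of the 45 genes, in 42 windows. The letters TATAAA stood in 16.7% of the 42 windows against 13.6% of all promoters. The letters of an E-box, CANNTG, the site of MyoD-type factors, stood in 83.3% against 72.3%. A MEF2-like motif, CTA, 4 bases of any kind and TAG, resembling the site of MEF2 factors, stood in 16.7% against 3.69%. Matches of different motifs may overlap, and 2 of the 7 windows with it are overlapping windows of Ldb3. Another is that of Des, the intermediate filament protein desmin, at chr1:75360042-75360341 on the plus strand, shown because Des had the smallest adjusted p of the 45 genes in BAT. Capitals mark the MEF2-like motif, which reads the same way on both strands.
Des: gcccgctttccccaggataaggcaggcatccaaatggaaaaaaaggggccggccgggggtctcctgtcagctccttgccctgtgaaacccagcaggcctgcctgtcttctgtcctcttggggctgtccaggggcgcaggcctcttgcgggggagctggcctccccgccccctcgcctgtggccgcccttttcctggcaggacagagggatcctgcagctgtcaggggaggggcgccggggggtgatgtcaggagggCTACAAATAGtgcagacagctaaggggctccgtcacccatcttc
A match of letters is a description of the sequence and does not show binding.

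Igbp1 was lower in every Ai-α4KO library, at 6.49 to 7.12 FPKM in iWAT against 35.7 to 42.4 in Control, and at 8.23 to 13.96 in BAT against 44.9 to 51.1. FPKM is the count of a gene divided by transcript length and by a library total, and it is the scale on which different genes are compared here. Total counts ran from 24023371 to 50384446 per library. Hoxc10, a positional gene of inguinal fat, was at 4.98 to 15.3 FPKM in iWAT and at most 0.0359 in BAT, and Zic1, a brown fat marker, was at 0.932 to 2.27 FPKM in BAT and at most 0.0767 in iWAT. Of 9 brown adipocyte genes, 8 were higher in BAT than in iWAT in each genotype, and Lhx8 did not pass in either. Of 4 inguinal genes, 3 were lower in Control BAT than in Control iWAT. In Ai-α4KO 2 were lower and Tbx15 was higher in BAT, at 14.2 to 38.4 FPKM against 5.65 to 9.52 in iWAT. Adipoq, which encodes adiponectin, was at 309 to 2776 FPKM in all 20 libraries.

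Contractile genes were abundant in BAT and scarce in most iWAT libraries. Summed over the 45 genes, they made up 0.178, 1.66, 1.07, 1.02 and 1.81% of all counts in Control BAT and 3.11, 3.48, 5.90, 9.92 and 6.06% in Ai-α4KO BAT. In Control iWAT the shares were 0.0345, 0.0181, 0.0131, 1.33 and 0.0416%, and in Ai-α4KO iWAT they were 1.27, 0.0330, 0.0248, 0.00870 and 0.00888%. All 5 Ai-α4KO BAT libraries lay above all 5 Control BAT libraries, while the iWAT genotypes overlapped. On the log2 scale the summed level in CPM (counts scaled to a library total) was 13.33 ± 1.37 in Control BAT and 15.64 ± 0.77 in knockout BAT (SD, n = 5 each), a difference of 2.31 that was 1.72 without Control BAT replicate 1. In iWAT they were 9.04 ± 2.65 and 8.43 ± 2.94, a difference smaller than either SD.

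**Figure D1:**
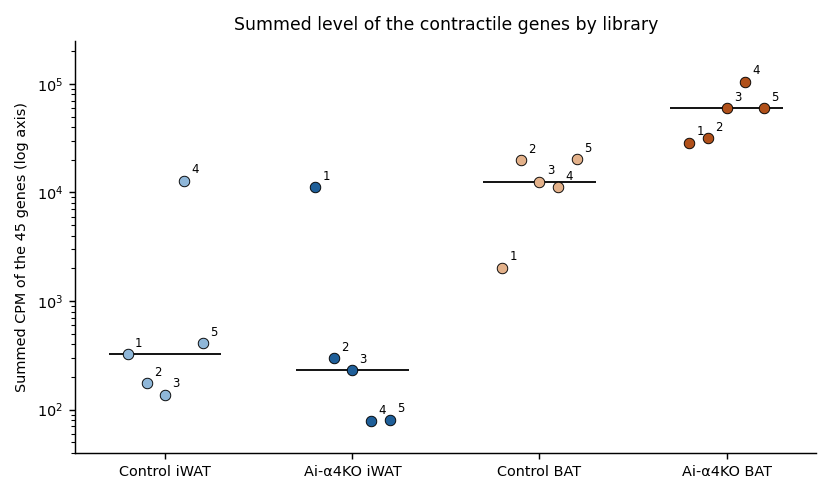
Summed level of the 45 contractile genes in each library, in CPM after TMM normalization on a log axis. Points are libraries, numbered by replicate, and lines are group medians. Control iWAT replicate 4 and Ai-α4KO iWAT replicate 1 lie near the Control BAT libraries, and Control BAT replicate 1 lies below the other 4 of its group.

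In all, 3 libraries stood apart from their groups. Control iWAT replicate 4 had a summed level 31.2-fold above the next highest Control iWAT library, and Ai-α4KO iWAT replicate 1 was 37.9-fold above the next highest of its group. Control BAT replicate 1 was the lowest of its group, at 2029.5 CPM against 11234 to 20269 in the others. These libraries entered every comparison, and results in iWAT are also given without the 2 high ones. They were chosen for that by their level of these same genes, so the values without them are descriptions of the remaining libraries. Cd79a, a B cell gene, was at 114 FPKM in Control iWAT replicate 1 and 41.5 in replicate 4, against 1.27 to 1.48 in the other 3 Control iWAT libraries.

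**Figure D2:**
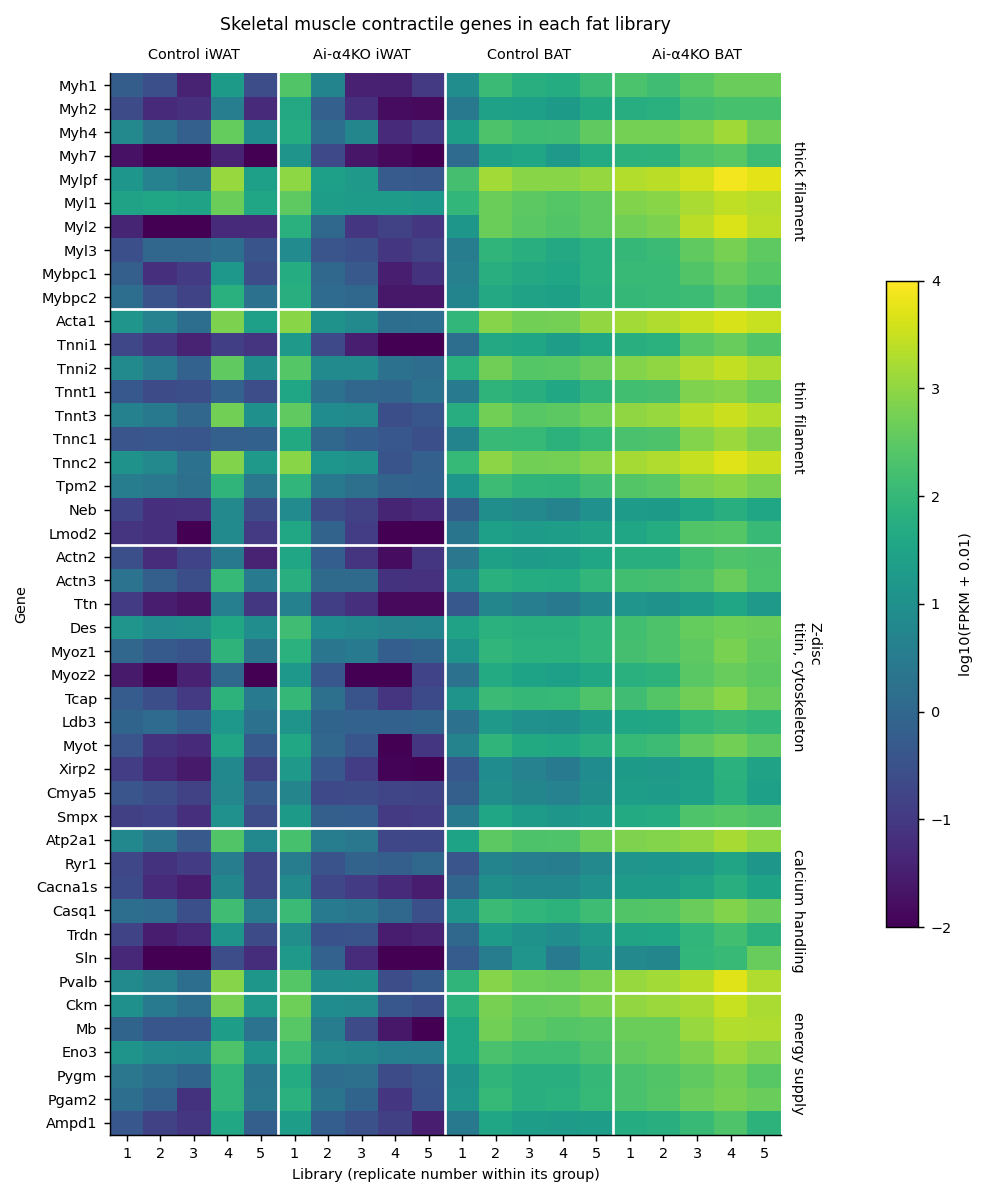
Level of each contractile gene (vertical, grouped by role) in each library (horizontal, grouped by tissue and genotype), coloured by log10(FPKM + 0.01). In Ai-α4KO iWAT replicate 1 all 45 genes exceeded 1 FPKM, while in replicates 4 and 5 of that group 6 genes did so.

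In BAT, all 45 genes had a positive fold change in Ai-α4KO against Control. With the quasi-likelihood method of edgeR and adjustment by Benjamini-Hochberg over all genes, 38 of 45 rose at an adjusted p below 0.01 and at least 2-fold, and none fell. Among all 14344 genes tested in BAT, 18.2% rose and 13.3% fell. The log2 fold changes of the 45 genes ran from 1.70 to 4.11 with a median of 2.17, against a median of -0.032 over all genes tested. The libraries did not overlap between genotypes for 42 of the 45 genes, against 32.5% of all genes with every Ai-α4KO library higher. The 7 genes that did not pass were Myh1, Myh4, Myh7, Myl3, Tcap, Atp2a1 and Mb, with adjusted p between 0.0106 and 0.0307. In bulk tissue, more cells of a type and more RNA per cell cannot be told apart.

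The number of genes that passed depended on single libraries. Leaving out each BAT library in turn gave 12 to 42 genes, all higher. The count was 42 without Control BAT replicate 1, the lowest library. It was 12 without Control replicate 3, 13 without Control replicate 4, 26 without Control replicate 2, and 14, 13 and 18 without Ai-α4KO replicates 3, 4 and 5. A fit in which all 20 libraries share their spread passed none of the 45. In these fits 16.6 to 18.2% of all genes rose, close to the 18.2% with all BAT libraries. The median log2 fold change of the 45 genes was 1.87 to 2.39, and the lowest of any gene was 1.30.

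Thick filament genes rose in 6 of 10 cases. Mylpf, the fast regulatory light chain of myosin with the highest mean FPKM of the 45 genes over the 20 libraries, was at 167, 1462, 850.5, 843 and 1129 FPKM in Control BAT and 2070.0, 2380.1, 3848, 7824 and 5805 in Ai-α4KO BAT. Every Ai-α4KO library was above every Control library, with a log2 fold change of 2.06 (SE 0.53, adjusted p = 0.00499). Myl2, the slow counterpart, was at 14.7, 439, 297, 237 and 331 FPKM in Control BAT and 518, 649.8, 2406, 4501 and 2531 in Ai-α4KO BAT. Its log2 fold change was 2.78 (SE 0.79, adjusted p = 0.00849), and Ai-α4KO replicates 3 to 5 were higher than replicates 1 and 2. Myl1, an essential light chain of fast fibres, was at 96.2, 440.3, 311, 258 and 322 FPKM in Control BAT and 726, 849, 1766, 2602 and 2199.6 in Ai-α4KO BAT. It had the second smallest adjusted p of the 45 genes in BAT, 0.000991, at a log2 fold change of 2.27 (SE 0.46).

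The heavy chain Myh4 was at 23.0, 215, 135, 147 and 349 FPKM in Control BAT and 571, 558, 721, 1416 and 526 in Ai-α4KO BAT. The groups did not overlap, but the adjusted p was 0.0106 at a log2 fold change of 1.89 (SE 0.56), just above the threshold of 0.01. Myh7 was at 1.22, 27.1, 32.9, 17.2 and 48.5 FPKM in Control BAT and 71.9, 74.3, 223, 271 and 132 in Ai-α4KO BAT, with a log2 fold change of 2.37 (SE 0.72, adjusted p = 0.0123). Mybpc2 and Mybpc1, the myosin binding protein C genes assigned here to fast and slow fibres, both rose, by 1.93 and 2.27 on the log2 scale. How the counting divided reads between Myh1, Myh2 and Myh4, which are alike in sequence, is not given in the sources used here, so the split between these 3 genes is uncertain.

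All 10 thin filament genes rose in BAT, with log2 fold changes of 1.94 to 2.88. Tnnc2, the calcium-binding troponin C of fast fibres, was at 107, 929.8, 525, 556 and 799 FPKM in Control BAT and 1554, 1893, 2990.1, 5072 and 3258 in Ai-α4KO BAT (log2 fold change 2.10, SE 0.50, adjusted p = 0.00324). Acta1, skeletal α-actin, was at 92.5, 821, 523, 544 and 1044 FPKM in Control BAT and 1444, 1886, 3042, 4264 and 3095 in Ai-α4KO BAT (log2 fold change 1.94, SE 0.52, adjusted p = 0.00619). Neither gene overlapped between genotypes. The highest fold change of this role was that of Tnnt1, the slow troponin T, at 2.88 (SE 0.74).

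Of the 12 genes of the Z-disc, titin and cytoskeleton, 11 rose. Des was at 28.9, 69.0, 58.6, 58.6 and 88.6 FPKM in Control BAT and 155, 209.7, 378, 478 and 426 in Ai-α4KO BAT. It had the smallest adjusted p of the 45 genes, 0.000276, at a log2 fold change of 2.20 (SE 0.37). Tcap, which caps titin at the Z-disc, did not pass. It was at 12.7, 125, 99.5, 103 and 223 FPKM in Control BAT and 146, 248, 507, 840.3 and 393 in Ai-α4KO BAT, so that Control replicate 5 exceeded Ai-α4KO replicate 1 (log2 fold change 1.70, SE 0.62, adjusted p = 0.0307). Smpx, a small protein of the muscle cell's outer Z-disc structures, rose by 2.89 (SE 0.66), and Ttn, the giant spring protein titin, by 2.11 (SE 0.56), on the log2 scale.

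Calcium handling genes rose in 6 of 7 cases. Pvalb, a calcium buffer of fast fibres, was at 84.1, 813, 483, 443 and 636 FPKM in Control BAT and 1212, 1451, 2222, 5102 and 1896 in Ai-α4KO BAT (log2 fold change 2.04, SE 0.55, adjusted p = 0.00676). Atp2a1, the fast calcium pump SERCA1, was at 29.5, 301, 207, 224 and 458 FPKM in Control BAT and 690.1, 759, 992, 1667 and 940.2 in Ai-α4KO BAT, and missed the threshold with an adjusted p of 0.0107. Sln encodes sarcolipin, a small inhibitor of that pump, and differed most among the Ai-α4KO libraries. It was at 0.55, 3.50, 13.2, 2.77 and 10.7 FPKM in Control BAT and 6.58, 5.73, 93.8, 114 and 408 in Ai-α4KO BAT. Its log2 fold change of 4.11 (SE 1.15, adjusted p = 0.00780) was the highest of the 45, yet Ai-α4KO replicates 1 and 2 lay within the Control range. It depended on Ai-α4KO replicate 5, without which no gene of the 45, Sln included, exceeded 2.96.

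Energy supply genes rose in 5 of 6 cases. Ckm, the muscle creatine kinase, was at 72.6, 591, 386, 406 and 637 FPKM in Control BAT and 1046, 1238, 1672, 3068 and 1772 in Ai-α4KO BAT (log2 fold change 1.83, SE 0.49, adjusted p = 0.00631). Mb, the oxygen store myoglobin, did not pass. It was at 34.6, 515, 308, 249 and 272 FPKM in Control BAT and 451, 460.3, 1156, 2081 and 1962 in Ai-α4KO BAT, with Control replicate 2 above Ai-α4KO replicates 1 and 2 (adjusted p = 0.0196). Pgam2, a glycolytic enzyme of muscle, was at 13.5, 104, 57.0, 66.8 and 105 FPKM in Control BAT and 192, 248, 415, 582 and 435 in Ai-α4KO BAT, with a log2 fold change of 2.19 (SE 0.49, adjusted p = 0.00198).

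**Figure D3:**
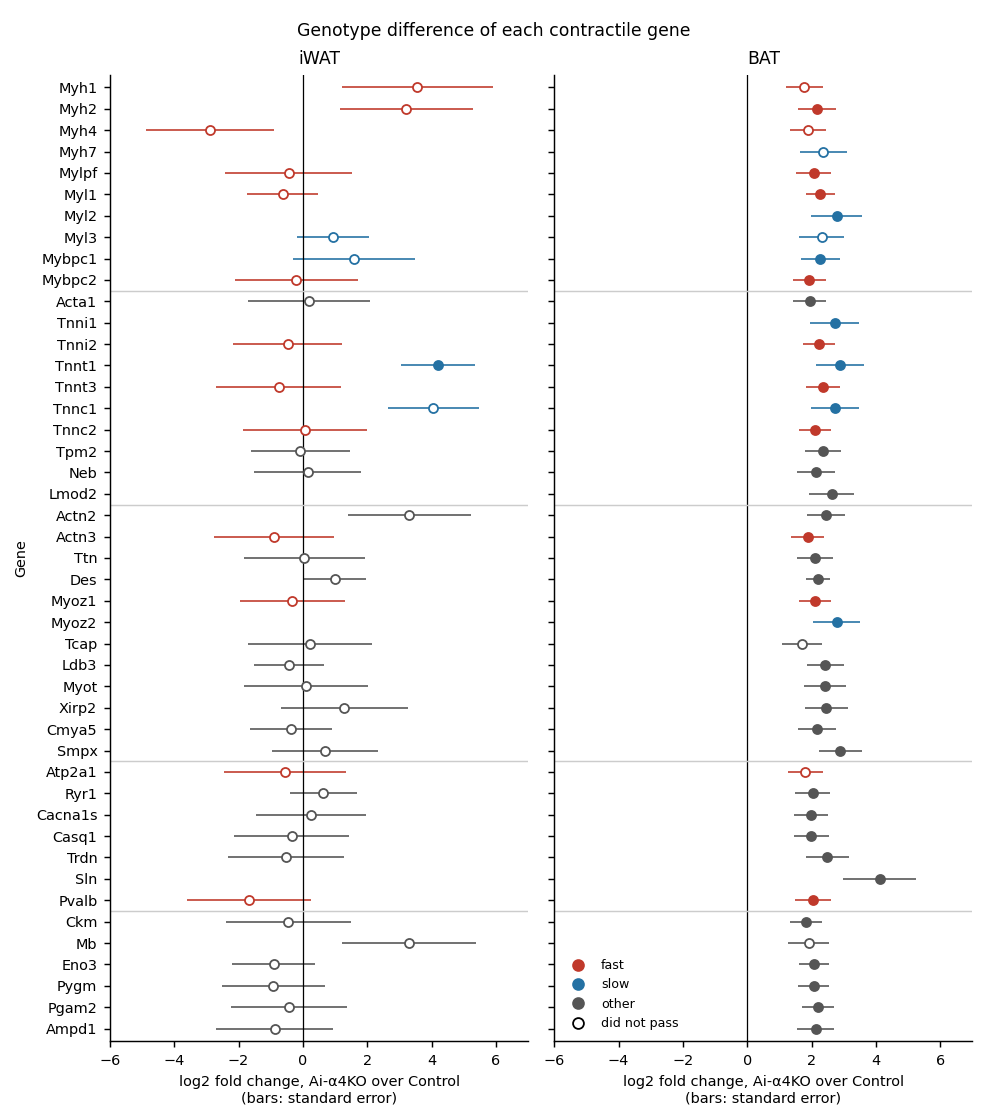
Log2 fold change of Ai-α4KO over Control for each contractile gene in iWAT (left) and BAT (right), with standard errors. Colours give the fibre type, filled points passed the test, and genes too low to be tested have no point. In BAT all 45 points lie between 1.70 and 4.11, and in iWAT 19 of 39 lie above 0.

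Genes of other muscle functions moved with the 45 in BAT. Of 48 further muscle genes, 47 were in the table and tested and 37 rose, with a median log2 fold change of 2.14. They included Csrp3, a Z-disc protein, and Myf6, which is also in the next list and is a transcription factor of mature muscle fibres. Myf6 was at 0.860, 9.31, 5.39, 5.80 and 7.05 FPKM in Control BAT and 16.1, 24.5, 47.6, 70.6 and 51.9 in Ai-α4KO BAT. Of 8 myogenic regulators and satellite cell markers, 6 were tested and 1, Myf6, rose, and the summed list was at 1.09 to 12.1 FPKM in Control BAT and 18.6 to 80.4 in Ai-α4KO BAT. Of 7 genes of embryonic or regenerating fibres, 6 were tested and 1 rose, Chrna1, a subunit of the acetylcholine receptor, at 0.0497 to 0.912 FPKM in Control BAT and 1.78 to 8.41 in Ai-α4KO BAT. The part of skeletal muscle tissue in the BAT result was not tested.

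Markers of other muscle types and of adipocytes were examined beside the 45 genes in BAT. Of 6 heart genes, 3 were tested and 2, Myh6 and Tnni3, rose, with a median log2 fold change of 3.12 over the 3, while Nppa was at 0 in all 20 libraries and Myl7 at 0 in all 10 BAT libraries. The summed heart list was at 3.63 to 4.11 FPKM in Control BAT and 6.72 to 20.5 in Ai-α4KO BAT. Myh6, the α heavy chain of heart, was at 0.0353 to 0.913 FPKM in Control BAT and 1.43, 1.41, 15.5, 13.9 and 4.19 in Ai-α4KO BAT. Of 9 smooth muscle genes, 8 were tested in BAT, 2 fell and 1, Des, rose, and Des is also among the 45. Acta2, the actin of smooth muscle, was at 6.56 to 9.31 FPKM in Control BAT and 5.14 to 10.4 in Ai-α4KO BAT. Of 7 adipocyte genes 5 fell in Ai-α4KO BAT and none rose, with a median log2 fold change of -1.90. Adipoq fell by 2.15 on the log2 scale (SE 0.19). The summed level of the list was 21600 to 24101 FPKM in Control and 16693 to 20663 in Ai-α4KO BAT, most of it Fabp4, which was at 17076 to 20260 and 15206 to 18561 FPKM and did not pass. Macrophage genes moved in the same direction as the contractile genes in BAT, where 3 of 3 rose and their sum went from 93.2 to 224 FPKM in Control to 2383 to 4093 in Ai-α4KO. The part of these changes in the result was not tested.

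In iWAT, 1 of 39 contractile genes tested passed between genotypes, and 6 were too low to be tested. Among all 14604 genes tested in iWAT, 11.3% rose and 10.7% fell. The median log2 fold change of the 39 genes was -0.081, with values from -2.89 to 4.21, and 19 were positive. The gene that passed was Tnnt1, at 0.446, 0.222, 0.264, 0.781 and 0.257 FPKM in Control iWAT and 35.3, 1.72, 0.933, 0.903 and 1.70 in Ai-α4KO iWAT. Every Ai-α4KO library was higher, with a log2 fold change of 4.21 (SE 1.15, adjusted p = 0.00915), and the call was lost when any Control iWAT library was left out. Tnnt1 and Myl2 were the 2 of 45 genes whose libraries did not overlap with Ai-α4KO higher, against 25% of all genes tested. Myl2 was at 0 to 0.0424 FPKM in Control iWAT, and at 63.6, 1.02, 0.0799, 0.139 and 0.0803 in Ai-α4KO iWAT, which in replicates 3 to 5 is 2 to 5 counts.

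Tnnc1, the slow troponin C, had the next smallest adjusted p in iWAT, 0.0306, at a log2 fold change of 4.05 (SE 1.41). It was at 0.369, 0.406, 0.387, 0.687 and 0.715 FPKM in Control iWAT and 44.9, 1.04, 0.612, 0.425 and 0.289 in Ai-α4KO iWAT, so that the difference lay in replicates 1 and 2. Actn2, a Z-disc crosslinker of actin, followed with a log2 fold change of 3.31 (SE 1.92, adjusted p = 0.165). Its levels were 0.274, 0.0479, 0.152, 2.71 and 0.0266 FPKM in Control iWAT and 34.05, 0.595, 0.0763, 0.00588 and 0.0767 in Ai-α4KO iWAT, and the groups overlapped. The abundant genes Mylpf and Ckm were high in 1 library of each genotype. Mylpf was at 14.3, 4.65, 2.48, 1203 and 24.8 FPKM in Control iWAT and 947, 23.98, 16.3, 0.512 and 0.472 in Ai-α4KO iWAT (log2 fold change -0.45, SE 1.98, adjusted p = 0.864). Ckm was at 10.02, 2.87, 1.45, 599 and 17.9 FPKM in Control iWAT and 478, 8.08, 6.95, 0.422 and 0.288 in Ai-α4KO iWAT (log2 fold change -0.47, SE 1.94, adjusted p = 0.855).

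Without Control replicate 4 and Ai-α4KO replicate 1, 37 genes were tested in iWAT and 3 passed, with 11.8% of all genes rising and 11.5% falling in that fit. Tnnt1 was higher by 1.99 (SE 0.37, adjusted p = 0.00151) and Ryr1 by 2.26 (SE 0.39, adjusted p = 0.000963) on the log2 scale. Ryr1, the calcium release channel of the sarcoplasmic reticulum, was at 0.179, 0.0669, 0.108 and 0.170 FPKM in the remaining Control iWAT libraries and 0.337, 0.797, 0.658 and 0.983 in the remaining Ai-α4KO ones. Eno3, the muscle enolase, fell by 1.12 (SE 0.27, adjusted p = 0.00600), and 27 of the 37 genes were negative.

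Some of the 45 genes kept a level in fat where Mylpf was nearly absent. In Ai-α4KO iWAT replicates 4 and 5, where Mylpf was at 0.512 and 0.472 FPKM, Myl1 was at 21.03 and 16.1, Des at 4.79 and 5.04, and Eno3 at 3.93 and 3.65. Myl1 stayed between 16.1 and 34.6 FPKM in all 8 iWAT libraries other than the 2 high ones, where it was at 454 and 326. In those 8 libraries Mylpf ran from 0.472 to 24.8 FPKM.

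**Figure D4:**
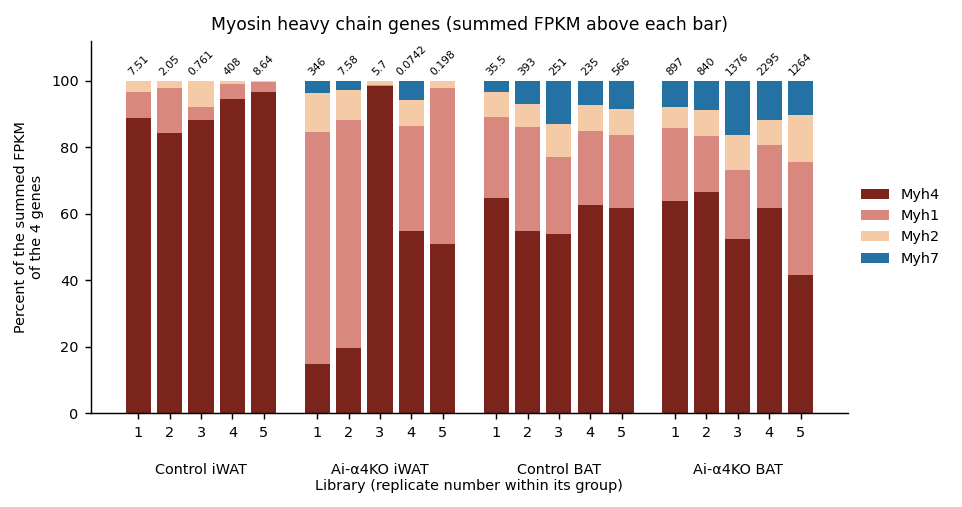
Shares of the 4 myosin heavy chain genes in their summed FPKM, in percent, for each library, with the summed FPKM above each bar. Myh4 took 94.6% in Control iWAT replicate 4, while Myh1 took 69.7% in Ai-α4KO iWAT replicate 1, and all BAT libraries held all 4 genes with Myh4 at 41.6 to 66.4%.

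The high iWAT libraries differed in their proportions of fast and slow genes and of the heavy chains, the latter within the uncertain split of reads between Myh1, Myh2 and Myh4. In Control iWAT replicate 4, slow genes made up 0.400% of the summed FPKM of the 13 fast and 8 slow genes, and Myh4 made up 94.6% of the 4 heavy chains. Mybpc1 alone, with 2340 counts, gave 15.77 of the 19.98 FPKM of the slow genes in that library. That library held 86978 counts of Myh4 and 6 of Myh7, and 33868 counts of Mylpf and 1 of Myl2. In Ai-α4KO iWAT replicate 1 slow genes made up 6.36%, and Myh1 led the heavy chains with 69.7%, followed by Myh4 with 14.9%, Myh2 with 11.8% and Myh7 with 3.64%. It held 25049 counts of Mylpf and 1410 of Myl2. Replicate 2 of the same group had nearly the same heavy chain shares at a far lower level, with Myh1 at 68.6% of 7.58 FPKM. The BAT libraries held a mixture, with slow genes at 4.96, 13.9, 16.7, 12.9 and 13.5% in Control and 12.0, 12.1, 22.8, 21.4 and 20.1% in Ai-α4KO, and the genotypes overlapped.

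Slow and fast counterparts were compared as 8 log2 ratios per library, computed from counts with 0.5 added and divided by gene length. Each ratio was tested in 4 comparisons by a two-sided exact permutation test using every way to arrange 5 and 5 libraries, with Benjamini-Hochberg adjustment over the 32 tests at a threshold of 0.05. The smallest p these arrangements allow is 0.0079. In BAT, all 8 differences of Ai-α4KO from Control were positive, at 0.33 to 0.77, and none of the 8 passed, either at the adjusted or at an unadjusted 0.05. Control BAT replicate 1 had the lowest Control ratio in all 8 pairs. Without it the differences were -0.15 to 0.43, Myl3 to Myl1 turned negative, and none passed. The widest difference was that of Myoz2 to Myoz1, Z-disc proteins that bind calcineurin, which was -1.54 ± 0.77 in Control and -0.78 ± 0.65 in knockout BAT (SD, n = 5 each, exact permutation p = 0.13), a difference of 0.77 that was 0.43 without Control BAT replicate 1. Myl2 to Mylpf was -2.07 ± 0.81 and -1.31 ± 0.60 (SD, n = 5 each, exact permutation p = 0.13), a difference of 0.76 that was 0.41 without that library. The median log2 fold change in BAT was 2.72 for the 8 slow and 2.06 for the 13 fast genes, and 2.41 and 1.79 without Control BAT replicate 1.

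**Figure D5:**
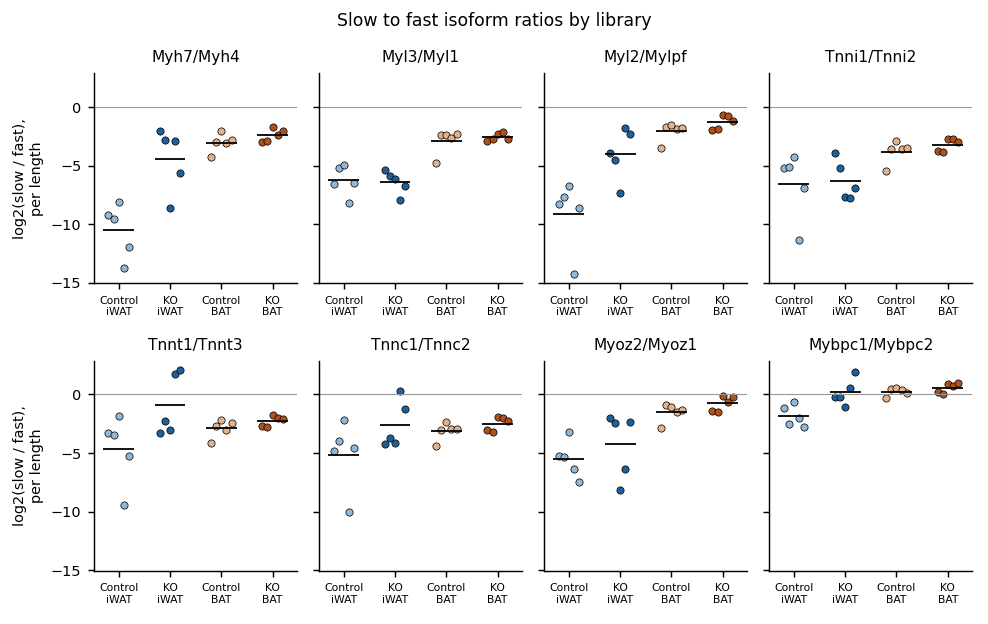
Log2 ratio of the slow to the fast counterpart in each library for 8 pairs, per gene length, with group means as lines. In BAT, Control replicate 1 lies below the other 4 Control libraries in all 8 pairs, at -4.79 against -2.63 to -2.26 for Myl3 to Myl1, and in iWAT the points spread over several log2 units.

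In iWAT, 3 ratios passed between genotypes, Myh7 to Myh4, Myl2 to Mylpf and Mybpc1 to Mybpc2. All 3 rest on few reads in some libraries. Control iWAT libraries held 0 to 6 counts of Myh7 and 0 or 1 of Myl2. The ratios of these 2 genes were set by the added 0.5 and the level of the fast gene, and no difference is given for them. Mybpc1 to Mybpc2 was -1.83 ± 0.90 in Control and 0.18 ± 1.14 in the iWAT libraries of the knockout (SD, n = 5 each, exact permutation p = 0.016, adjusted p = 0.0462). Counts of Mybpc1 were 8 to 2340 in Control and 5 to 7343 in Ai-α4KO iWAT. Ai-α4KO replicates 4 and 5 had the highest ratios of their group, 0.52 and 1.93. They held 5 and 10 counts of Mybpc1 and 3 and 2 of Mybpc2. In Control replicate 4 Mybpc1 was high while the other slow genes were low, so this ratio does not measure slow fibres alone. Without the 2 high libraries none of the 8 iWAT ratios passed, with adjusted p from 0.141 to 0.829 by the same exact permutation test. The smallest p that 4 against 4 libraries allow is 0.029, so with the adjustment over 32 tests these tests could hardly pass, and the lost calls do not show smaller differences. The difference for Mybpc1 to Mybpc2 was 2.06, against 2.01 with all libraries, and both include the low counts of Ai-α4KO replicates 4 and 5. Between tissues, 5 of 8 ratios were higher in BAT than in iWAT in Control, and 3 of 8 in Ai-α4KO. Without the high libraries 4 and 3 passed. In Control, Myh7 to Myh4, Myl2 to Mylpf and Myoz2 to Myoz1 rest on few reads in iWAT. Control iWAT held 1, 0, 1, 43 and 0 counts of Myoz2. The 3 in Ai-α4KO, Myoz2 to Myoz1, Tnni1 to Tnni2 and Myl3 to Myl1, share that limit. Ai-α4KO iWAT held 643, 21, 0, 0 and 7 counts of Myoz2, 687, 10, 1, 0 and 0 of Tnni1, and 247, 15, 10, 4 and 5 of Myl3. Of the 11 ratio calls within iWAT and between tissues, 7 were made with 2 counts added in place of 0.5. None was made from the deposited FPKM, where libraries with a gene at 0 were left out.

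The fold changes of BAT over iWAT were positive for every contractile gene tested in both genotypes, and a minority of the genes passed the test with all libraries. In Control, 11 of 44 genes tested were higher and none lower, among 7.22% higher and 14.7% lower of all 14260 genes tested. All 44 had a positive fold change, with a median of 2.41 on the log2 scale. The 11 comprised 7 of the 8 slow genes, 1 of 13 fast genes, Myh2, and Actn2, Des and Mb. For the slow genes Tnnc1, Tnnt1, Tnni1 and Myl3 the log2 fold changes were 7.45, 7.25, 8.25 and 6.16. These rest on low counts per Control iWAT library, at 9 to 19, 8 to 30, 1 to 10 and 12 to 52, so their size is uncertain. Myl2 held 0 or 1 count in each Control iWAT library, and 261 to 9628 in Control BAT, and no fold is given. Without Control iWAT replicate 4 all 45 genes were higher, among 8.55% higher and 14% lower of all genes. For 9 of 45 genes no Control iWAT library reached the lowest Control BAT library, against 11.2% of all genes.

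In Ai-α4KO, 8 of 45 genes were higher in BAT than in iWAT and none lower, among 8.4% higher and 3.09% lower of all genes tested. The 8 were Myl1, Myl3, Tnnt1, Tnnc1, Ldb3, Cmya5, Ryr1 and Eno3, all with positive values at a median over the 45 genes of 4.76. The libraries did not overlap for 41 of 45, against 12.1% of all genes. Without Ai-α4KO iWAT replicate 1 all 45 were higher, among 9.97% higher and 3.14% lower of all genes.

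An interaction term in a fit of all 20 libraries tested whether the genotype difference itself depended on the tissue. None of the 45 genes passed at an adjusted p below 0.01 by edgeR, against 3.26% of all genes with a positive and 1.6% with a negative difference. At an unadjusted p below 0.05 the count was 5, Myh4, Myl1 and Ldb3 with a positive difference (BAT minus iWAT) and Myh7 and Myl2 with a negative one, and DESeq2 passed none at the adjusted threshold. Of all genes tested, 31% had an unadjusted p below 0.05, against these 5 of 45. The values of Myh7 and Myl2, -5.74 and -5.81 on the log2 scale, rest on the 0 to 6 and 0 or 1 counts in Control iWAT given above, and without the 2 high libraries they were -1.32 and -0.70. With all libraries, the genotype difference was thus not shown to differ between BAT and iWAT for any of the 45 genes. Without the 2 high iWAT libraries 5 genes passed, Myl1, Tpm2, Des, Ldb3 and Eno3, among 4.69% positive and 0.843% negative of all genes. Each rose in BAT and had a negative log2 fold change in the remaining iWAT libraries, from -1.12 to -0.62. Of these iWAT changes, that of Eno3 alone passed.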

How the data were processed

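RNA from 20 libraries was sequenced as paired reads of 150 bases (TruSeq Stranded mRNA). Per the submitters' processing notes, reads were aligned with STAR 2.5.3a to mm10; the counting tool is not given in the sources used here. The authors deposited estimated counts and FPKM per gene, and 76.6% of nonzero counts were whole numbers. Counts were rounded and tested with edgeR 4.0.16 (quasi-likelihood, TMM factors, filterByExpr) within the groups compared, with Benjamini-Hochberg adjustment over all genes tested. A gene changed at an adjusted p below 0.01 and at least 2-fold, and the interaction used the adjusted p alone. FPKM values, normalized by the authors to length and library, were used for levels only. Total counts were 24023371 to 50384446 per library. The 45 genes, the gene lists and the tests were chosen with earlier results of these data known. The named genes were the 2 with the highest mean FPKM in each role, the 3 with the smallest adjusted p in each tissue and the members of 8 slow to fast pairs, and others were named after their values were seen. The alternatives were DESeq2 1.42.0, limma 3.58.1 on log2(FPKM + 1) and log2(FPKM + 0.1), other scaling factors, filters and thresholds, a replicate block, a single fit and each library left out. Leaving out the 2 high iWAT libraries was added after seeing the data. Deviations of same-numbered libraries from their group means correlated weakly or negatively, at r -0.454 to 0.24 over all comparisons and -0.263 to 0.24 between tissues. This does not show whether 1 mouse gave both tissues. The labels give no pairing, and the numbers were not taken as pairs. The procedure was tested on simulated data.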

Additional observations from a re-analysis of the deposited data

Results flagged for a closer look

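In 3 groups there was a library whose summed level of the 45 genes lay far from the other 4 on the log2 scale, measured as its gap to the nearest library divided by the range of the group, with 0.71 as Dixon's 95% critical value. The value was 0.758 for Control iWAT replicate 4 and 0.732 for Ai-α4KO iWAT replicate 1, each the highest of its group, and 0.744 for Control BAT replicate 1, the lowest of its group. Gene by gene, the same measure was exceeded for 8 of 45 genes in Control iWAT, 10 in Ai-α4KO iWAT, 28 in Control BAT and 1 in Ai-α4KO BAT. Chance gives about 1 in 20 groups, or 2.25 of 45, and the 45 genes vary together, so these counts are not independent.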

How the results depend on the processing

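In BAT, the 38 genes that rose became 12 to 42 when single libraries were left out and 0 in a single fit of all 20 libraries, which shares its spread with the variable iWAT libraries. In iWAT, the 1 gene became 0 with DESeq2, upper-quartile factors, at least 10 counts in every library, limma with either pseudocount or the replicate block, 2 at an adjusted p below 0.05, 3 in the single fit, 0 to 1 with a library left out and 3 without the high iWAT libraries. Between tissues in Control, the 11 genes became 3 with at least 10 counts, 21 and 23 with limma at pseudocounts of 1 and 0.1, and 10 to 45 with a library left out, 45 being without Control iWAT replicate 4, as it was without the high libraries. In Ai-α4KO, the 8 genes became 30 with DESeq2, 30 at an adjusted p below 0.05, 45 with either limma fit, 14 with the replicate block, 15 in the single fit, 2 to 45 with a library left out and 45 without the high libraries. The interaction count of 0 became 0 to 7 with a library left out, 7 being without Ai-α4KO iWAT replicate 1, and 5 without the high libraries. The 11 ratios that passed became 7 with 2 counts added, 0 from the deposited FPKM, 6 to 11 with a library left out and 7 without the high libraries. Beyond fewer samples or genes, the cause was not tested.

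In iWAT, log2 fold changes that did not pass changed sign. With limma at a pseudocount of 1, Tnnc2 was -0.67, Acta1 -0.51, Tcap -0.091 and Des -0.10, and at 0.1 they were -1.06, -0.61, -0.26 and -0.15, with Mb at -0.31. With the replicate block Mylpf was 0.62, Tcap -0.12, Des -0.44 and Mb -0.46. Without the high libraries Tnnc2 was -0.59, Acta1 -1.05, Tcap -0.82, Des -0.81 and Mb -0.078. With a library left out the ranges were -4.68 to 3.96 for Mylpf, -4.63 to 4.09 for Tnnc2, -4.72 to 3.85 for Acta1, -4.89 to 4.29 for Tcap, -1.43 to 1.61 for Des, -5.23 to 2.89 for Pvalb, -5.12 to 3.13 for Atp2a1, -5.08 to 3.48 for Ckm, -2.57 to 5.78 for Mb and -1.86 to 5.58 for Actn2.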

Other observations

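Genes outside the 45 whose log2 level followed theirs most closely were found by correlation after centring within each group, over 20 libraries. Trim54, Klhl40, Itgb1bp2, Mypn, Lmod3, Myo18b, Klhl41, Sypl2, Prr33 and Dhrs7c had Pearson correlations of 0.99 to 0.993 with the log2 summed CPM of the 45 genes. All points share libraries and depth. Most of the spread lay in iWAT, where the log2 summed level had SDs of 2.65 and 2.94, against 1.37 and 0.77 in BAT. The 2 high iWAT libraries weigh heavily in that spread, so the correlations do not describe the other libraries alone. Lmod3, a leiomodin of the thin filament, had a median of 8.98 FPKM in Control BAT and 53.6 in Ai-α4KO BAT, and Klhl40, a stabilizer of thin filament proteins, 2.78 and 21.5. Among the 45 genes the correlation was lowest for Sln, at 0.755.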
